A study of Mus musculus with 12 samples.

Results

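Under the label of sinusoidal scavenger and lipid uptake receptors, 10 genes were followed in sorted mouse stromal cells, the sinusoid being the thin-walled vessel that drains the marrow. They comprise the scavenger receptors and their relatives Stab1, Stab2, Lyve1, Mrc1, Cd36, Cd14 and Scarb1, the membrane-recycling ATPase Ehd3, and the fatty acid carriers Fabp4 and Fabp5. They were taken by name from the probe sets of the array that carry a single gene symbol. All 10 were measured, out of 19937 genes with 1 symbol, and all 10 were among the 12430 genes bright enough to test. Fabp5 had 2 probe sets, of which the brighter on average was used.

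The arrays measured RNA of endothelial cells and osteoblasts sorted from long bones of female mice of the NOD SCID strain, which lacks functional B and T cells. Each of 4 groups had 3 arrays: endothelial cells from tumor-bearing mice, endothelial cells from tumor-free mice, osteoblasts from tumor-bearing mice and osteoblasts from tumor-free mice. Tumor-bearing mice had received 200000 MDA-MB231 scp1833 cells into the heart about 2 weeks earlier; this is 1 subline of a human breast cancer cell line that grows in bone. Endothelial cells were sorted as GFP-TR119-CD45-SCA1+CD31+ and osteoblasts as GFP-TR119-CD45-SCA1-CD31-CD51+, so the endothelial gate took every SCA1+ CD31+ vessel cell and not sinusoids alone. The labels do not say what tumor-free mice were injected with or whether an array pools mice. They call each array a biological replicate.

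Sinusoidal endothelium, best studied in liver, clears macromolecules from blood by endocytosis: stabilins, the mannose receptor and related receptors bind hyaluronan, collagen fragments, modified lipoproteins and glycoproteins and carry them to lysosomes. Capillaries that deliver fat to tissue use another set, in which CD36 takes up long-chain fatty acids and the binding proteins FABP4 and FABP5 carry them inside the cell. Macrophages use many of the same receptors, so markers of that cell type were read beside them.

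Values below are the deposited log2 levels, and a difference of 1 on this scale is a 2-fold change. The median probe set of an array lay between 5.21 and 5.41. Levels of different genes come from different probes and were not ranked against each other. On tested genes, the arrays of a group correlated at 0.953 to 0.968 for endothelial cells of tumor-bearing mice, 0.955 to 0.972 for those of tumor-free mice, 0.908 to 0.948 for osteoblasts of tumor-bearing mice and 0.723 to 0.849 for those of tumor-free mice. In the tumor-free osteoblast group, array 1 stood apart from arrays 2 and 3 in macrophage markers, as given below. All 8 endothelial markers tested were higher in endothelial cells than in osteoblasts in both states, among them Tek (5.53 in tumor-bearing and 5.79 in tumor-free mice) and Robo4 (2.80 and 2.94). All 7 osteoblast markers tested were lower, among them Ibsp (-5.88 and -5.49), Alpl (-3.20 and -3.30) and Phex (-3.56 and -4.80). Of 9 arterial endothelial markers, 6 were higher in each state, among them Gja5 (3.69 and 3.48) and Efnb2 (2.25 and 2.81), as well as Sox17 (2.85 and 2.30) and Gja4 (2.23 and 2.18), so the gate held arterial as well as sinusoidal markers. Pecam1, which encodes the sorting marker CD31, averaged 10.81 in endothelial cells from tumor-bearing mice, 10.76 in those of tumor-free mice, 5.41 in osteoblasts of tumor-bearing mice and 5.69 in those of tumor-free mice.

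The first comparison was between the cell types. In tumor-bearing mice, 7 of the 10 genes were higher in endothelial cells than in osteoblasts and 0 were lower (limma, Benjamini-Hochberg adjusted p under 0.05), where 8.13% of all genes tested were called higher. In tumor-free mice 6 of 10 were higher and 0 lower, where 18.2% of all genes were called higher. Stab1, Stab2, Cd36, Cd14, Scarb1 and Fabp4 were called in both states and Fabp5 in tumor-bearing mice. The median difference over the 10 genes was 2.57 in tumor-bearing and 2.21 in tumor-free mice, against 0.00 and 0.03 over all genes tested. The endothelial arrays lay above all osteoblast arrays of the same state for 8 genes in tumor-bearing mice, where 19.5% of all genes did so, and for 7 genes in tumor-free mice, where 23.1% did. Higher levels in the endothelial sort are what the label of these genes says, so the counts check the label rather than add a finding. In sorted RNA, a lower share of cells that express a gene and less RNA per cell cannot be told apart.

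**Figure D1:**
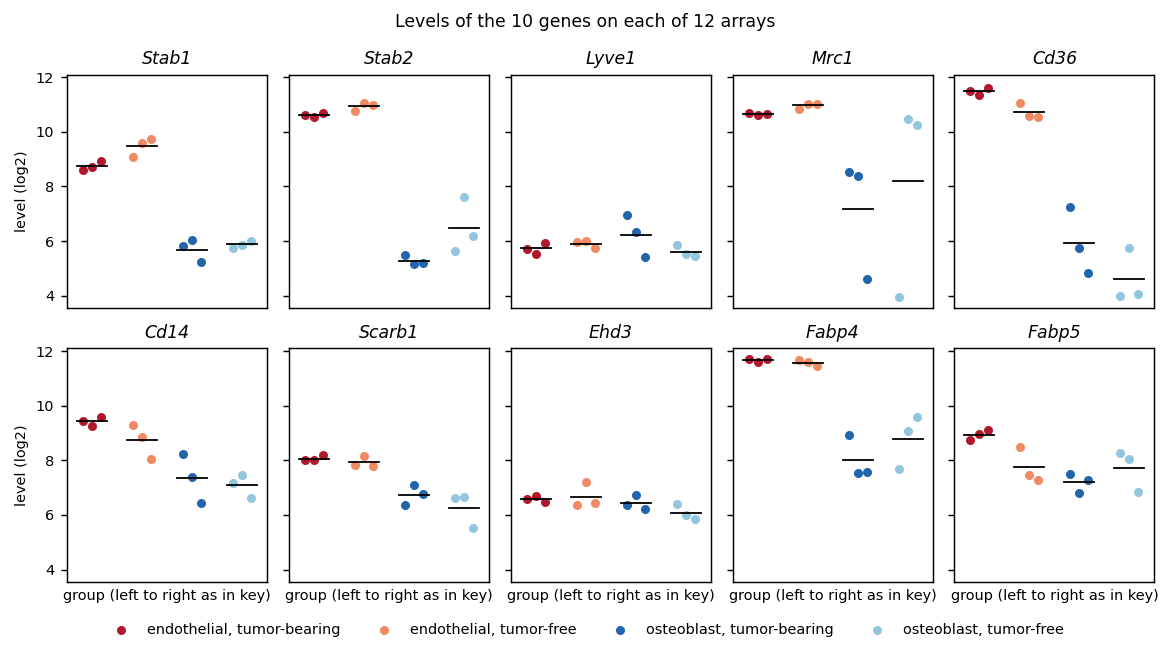
Levels (log2, vertical axis) of the 10 genes on each of 12 arrays, 1 panel a gene, with endothelial cells of tumor-bearing and tumor-free mice at the left of each panel and osteoblasts at the right. Points are arrays and bars group means (n = 3). Stab1, Stab2, Cd36, Cd14, Scarb1 and Fabp4 lie higher on the endothelial arrays, Mrc1 spreads from 3.94 to 10.47 on the osteoblast arrays, and Lyve1 and Ehd3 show little separation.

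Stab1 and Stab2 encode the stabilins, large receptors of sinusoidal endothelium that take up hyaluronan, acetylated lipoproteins and other debris. Stab1 (chr14:31139017-31168651, GRCm38.p6) had levels of 8.58, 8.71 and 8.94 in endothelial cells from tumor-bearing mice and 9.07, 9.61 and 9.73 in those of tumor-free mice. It had 5.81, 6.03 and 5.21 in osteoblasts of tumor-bearing mice and 5.76, 5.86 and 6.01 in those of tumor-free mice. Every endothelial array thus stood above every osteoblast array, and every endothelial array of the tumor-bearing state stood below every tumor-free one. Stab1 was 8.36-fold higher in endothelial cells than in osteoblasts in tumor-bearing mice (log2 difference 3.06 ± 0.23 SE, limma adjusted p = 7.3e-06) and 12.1-fold higher in tumor-free mice (3.60 ± 0.23 SE, adjusted p = 2.4e-06).

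Stab2 (chr10:86841194-87008038) is the stabilin known as the hyaluronan receptor for endocytosis. Its levels were 10.63, 10.54 and 10.68 in endothelial cells from tumor-bearing mice and 10.76, 11.05 and 10.98 in those of tumor-free mice. In osteoblasts they were 5.49, 5.16 and 5.18 in tumor-bearing mice and 5.62, 7.62 and 6.18 in tumor-free mice. The osteoblast arrays were thus low except for array 2 of the tumor-free group, and the osteoblast groups did not overlap. The cell type difference was 40.5-fold in tumor-bearing mice (5.34 ± 0.39 SE, adjusted p = 5.2e-06) and 22.0-fold in tumor-free mice (4.46 ± 0.39 SE, adjusted p = 1.9e-05).

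Mrc1 (chr2:14229414-14332023) encodes the mannose receptor CD206, which binds mannose-ended glycoproteins and collagen fragments and is made by sinusoidal endothelium and by many macrophages. Endothelial arrays were tightly grouped, at 10.68, 10.63 and 10.66 in tumor-bearing mice and 10.85, 11.02 and 11.03 in tumor-free mice. Osteoblast arrays read 8.51, 8.39 and 4.60 in tumor-bearing mice and 3.94, 10.47 and 10.24 in tumor-free mice. In each osteoblast group, then, 1 array was below the array median and the other 2 were several log2 units above it. All endothelial arrays lay above all osteoblast arrays, but with this spread the difference of 3.49 ± 1.52 SE in tumor-bearing mice (adjusted p = 0.172) and 2.75 ± 1.52 SE in tumor-free mice (adjusted p = 0.179) did not pass the test. Without array 1 of the tumor-free osteoblasts, which lowers the estimated spread, the tumor-bearing difference of 3.49 passed (adjusted p = 0.0116). It also passed when the 6 arrays of tumor-bearing mice were fitted alone (3.49, adjusted p = 0.0354) and with array quality weights (2.90, adjusted p = 0.0169).

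The promoter windows of these 3 large endocytic receptors are shown because all 3 were higher on the endothelial arrays and lower, without overlap, on the tumor-bearing ones. Of all genes tested, 10.9% were lower there without overlap, and none of the 3 tumor differences had an adjusted p under 0.05 (limma). RefSeq's promoter table, on GRCm38.p6, held windows for 5 of the 10 genes, of which that of Cd36 lay largely inside the gene and was not used. The bases before the outermost RefSeq start of each of the 3 genes are printed 5′ to 3′ on the gene's strand. Capitals mark AGGAA, which holds the GGAA core bound by ETS factors, or its reverse complement TTCCT. The ETS factors are a family that includes the endothelial regulator Erg. The motif was chosen after the windows had been seen.
Stab1, chr14:31168652-31168891, minus strand: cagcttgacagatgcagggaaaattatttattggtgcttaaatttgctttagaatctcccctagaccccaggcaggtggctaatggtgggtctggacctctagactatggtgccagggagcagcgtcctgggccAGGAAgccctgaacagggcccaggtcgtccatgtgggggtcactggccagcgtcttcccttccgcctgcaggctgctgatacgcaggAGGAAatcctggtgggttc
Stab2, chr10:87008039-87008192, minus strand: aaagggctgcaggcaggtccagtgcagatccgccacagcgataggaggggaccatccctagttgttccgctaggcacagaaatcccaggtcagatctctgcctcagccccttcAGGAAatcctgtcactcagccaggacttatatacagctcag
Mrc1, chr2:14229164-14229413, plus strand: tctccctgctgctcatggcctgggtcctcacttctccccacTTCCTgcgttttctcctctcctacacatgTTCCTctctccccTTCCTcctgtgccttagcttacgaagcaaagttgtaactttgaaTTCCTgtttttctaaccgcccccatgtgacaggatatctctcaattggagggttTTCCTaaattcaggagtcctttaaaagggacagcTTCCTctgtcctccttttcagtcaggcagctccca
The motif occurred 2 times in the 240 bases of Stab1, where 58.8% of 32536 RefSeq windows of that length hold it, 1 time in the 154 bases of Stab2, where 44.6% do, and 6 times in the 250 bases of Mrc1, where 60.2% do. The window of Ehd3, a gene that did not pass between the cell types, also held it, 1 time in 250 bases. Windows that hold the motif at least 1 time are therefore common, and a match in letters shows no binding. The shares count windows with any match, so they give no baseline for the 6 matches of Mrc1.

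Lyve1 (chr7:110850607-110862953) encodes a hyaluronan receptor of lymphatic endothelium and of some sinusoids, and it did not follow the stabilins. Its levels were 5.72, 5.54 and 5.93 in endothelial cells from tumor-bearing mice and 5.95, 5.99 and 5.74 in those of tumor-free mice. In osteoblasts they were 6.94, 6.33 and 5.42 in tumor-bearing mice and 5.85, 5.51 and 5.45 in tumor-free mice. All groups overlapped between cell types, with the highest values on arrays 1 and 2 of tumor-bearing osteoblasts. The cell type difference was -0.50 ± 0.31 SE in tumor-bearing mice (adjusted p = 0.379) and 0.29 ± 0.31 SE in tumor-free mice (adjusted p = 0.488). Without array 3 of the tumor-bearing osteoblasts, the tumor-bearing difference of -0.90 passed the test (adjusted p = 0.026). For Lyve1 the label was therefore not borne out by this probe set. Its endothelial levels of 5.54 to 5.99 lay near the array medians of 5.21 to 5.41. Low RNA and a probe set that does not respond cannot be told apart here.

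Cd36 (chr5:17781690-17888959), the fatty acid translocase and a receptor for oxidized lipoprotein and thrombospondin, had, with Stab2, the largest cell type differences of the 10. Levels were 11.51, 11.34 and 11.60 in endothelial cells from tumor-bearing mice and 11.07, 10.57 and 10.55 in those of tumor-free mice. Osteoblast arrays read 7.26, 5.75 and 4.82 in tumor-bearing mice and 4.0, 5.73 and 4.04 in tumor-free mice. The cell types were separated on every array, and the endothelial groups did not overlap, with the tumor-bearing arrays higher. The difference was 46.5-fold in tumor-bearing mice (5.54 ± 0.57 SE, limma adjusted p = 7.5e-05) and 70.6-fold in tumor-free mice (6.14 ± 0.57 SE, adjusted p = 3.4e-05). Without array 1 of the tumor-bearing osteoblasts, the first became 6.20 on the log2 scale. Without array 3 of that group it became 4.98, below the 5.29 of Stab2 in the same fit, so the order of these 2 genes in tumor-bearing mice rests on single arrays.

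Scarb1 (chr5:125277087-125341094) encodes the high-density lipoprotein receptor SR-B1, which takes up cholesteryl esters. Endothelial levels were 8.0, 8.02 and 8.18 in tumor-bearing and 7.85, 8.16 and 7.78 in tumor-free mice, against osteoblast levels of 6.38, 7.10 and 6.77 in tumor-bearing and 6.61, 6.66 and 5.51 in tumor-free mice. The endothelial arrays were all higher, and the states overlapped in both cell types. The gene was 2.49-fold higher in endothelial cells in tumor-bearing mice (adjusted p = 0.0104) and 3.18-fold higher in tumor-free mice (adjusted p = 0.00231).

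Cd14, on chromosome 18, encodes the co-receptor that passes bacterial lipopolysaccharide to TLR4 and MD-2. Its levels were 9.44, 9.27 and 9.59 in endothelial cells from tumor-bearing mice and 9.29, 8.87 and 8.04 in those of tumor-free mice. Osteoblast arrays read 8.25, 7.40 and 6.42 in tumor-bearing mice and 7.16, 7.48 and 6.61 in tumor-free mice. Endothelial arrays were again higher within each state, by 4.22-fold in tumor-bearing mice (2.08 ± 0.44 SE, adjusted p = 0.00745) and 3.13-fold in tumor-free mice (1.65 ± 0.44 SE, adjusted p = 0.0176). The second call was lost without array 3 of the tumor-free osteoblasts (1.41, adjusted p = 0.0525), without array 1 of the tumor-free endothelial cells (1.37, adjusted p = 0.0662) and without array 2 of that group (1.58, adjusted p = 0.0572). Over all alternatives tried, it passed in 17 of 23.

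The intracellular carriers differed from each other. Fabp4 (chr3:10204342-10208616), the carrier of adipocytes, capillary endothelium and some macrophages, had levels of 11.71, 11.61 and 11.71 in endothelial cells from tumor-bearing mice and 11.67, 11.61 and 11.47 in those of tumor-free mice. Osteoblast levels were 8.94, 7.54 and 7.57 in tumor-bearing mice and 7.70, 9.07 and 9.59 in tumor-free mice. Endothelial arrays were nearly level with one another and above all osteoblast arrays, by 12.7-fold in tumor-bearing mice (3.66 ± 0.46 SE, adjusted p = 0.00026) and 6.95-fold in tumor-free mice (2.80 ± 0.46 SE, adjusted p = 0.00151). The mean of the 7 adipocyte markers measured was 6.08 to 6.22 on endothelial arrays of tumor-bearing mice and 5.64 to 5.90 on those of tumor-free mice. On osteoblast arrays it was 5.90 to 6.01 in tumor-bearing mice and 6.01 to 6.26 in tumor-free mice. Of 5 tested, 1 was higher and 0 lower in tumor-bearing mice and 1 was higher and 1 lower in tumor-free mice: the lipase gene Pnpla2 was higher by 2.07 and 1.25, and Adipoq, the adiponectin gene, was lower in tumor-free mice (-2.08).

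Fabp5 (chr3:10012585-10016610), the carrier first known from skin and also made by capillary endothelium, had levels of 8.73, 8.98 and 9.12 in endothelial cells from tumor-bearing mice and 8.48, 7.45 and 7.30 in those of tumor-free mice. Osteoblast levels were 7.48, 6.81 and 7.28 in tumor-bearing mice and 8.27, 8.03 and 6.82 in tumor-free mice. The cell types were apart in tumor-bearing mice and overlapped in tumor-free mice. The difference was 3.37-fold in tumor-bearing mice (1.75 ± 0.39 SE, adjusted p = 0.0111), a call lost without array 2 of the tumor-bearing osteoblasts (1.56, adjusted p = 0.0526), and 0.04 ± 0.39 SE on the log2 scale in tumor-free mice (adjusted p = 0.954). The other Fabp5 probe set gave 2.18 ± 0.54 SE and -0.04 ± 0.54 SE. Fabp5 has processed pseudogenes in the mouse, and whether they add to either probe set was not tested.

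Ehd3 (chr17:73804841-73832093) belongs to the EHD ATPases, which reshape endosomal membranes and return receptors to the cell surface. Levels were 6.58, 6.70 and 6.46 in endothelial cells from tumor-bearing mice and 6.36, 7.22 and 6.42 in those of tumor-free mice, against 6.37, 6.72 and 6.20 in osteoblasts of tumor-bearing mice and 6.39, 5.99 and 5.86 in those of tumor-free mice. All groups overlapped, and the difference was 0.15 ± 0.25 SE in tumor-bearing mice (adjusted p = 0.788) and 0.59 ± 0.25 SE in tumor-free mice (adjusted p = 0.0872). Of its 3 relatives, 2 passed the test in each state: Ehd2 was higher in endothelial cells by 1.74 in tumor-bearing and 2.06 in tumor-free mice and Ehd4 by 1.08 and 1.44, while Ehd1 read 0.26 and 0.16. The tumor-bearing call of Ehd4 was lost in 6 of 12 fits that left out 1 array.

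**Figure D2:**
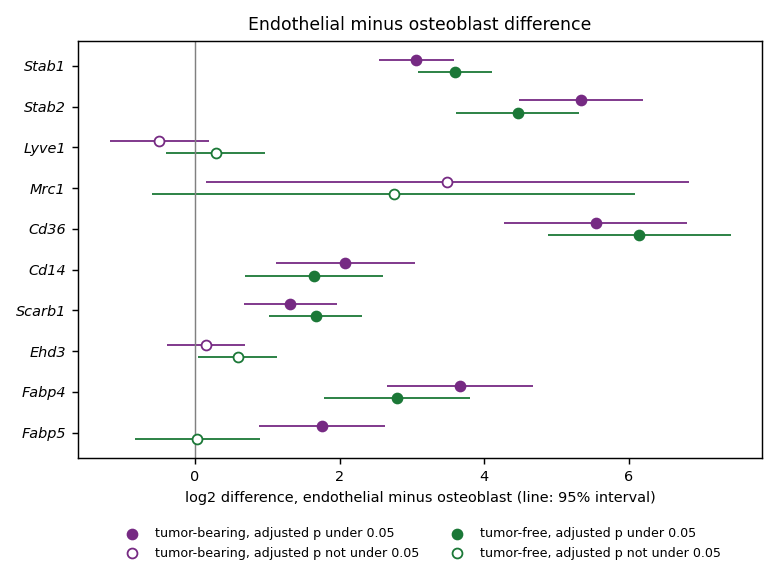
Difference between endothelial cells and osteoblasts (log2, horizontal axis) of each of the 10 genes in tumor-bearing and in tumor-free mice. Points are limma estimates over 3 arrays a group, lines 95% intervals, and filled points passed an adjusted p of 0.05. Cd36 and Stab2 lie farthest to the right, and the widest intervals are those of Mrc1.

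The rest of each pathway was read from lists that do not include the 10 genes. Of 15 other sinusoidal endothelial genes tested, 11 were higher and 0 lower in endothelial cells from tumor-bearing mice (median 2.11), and 11 were higher and 1 lower in those of tumor-free mice (median 2.97). Of all genes tested, 8.13% were called higher and 6.79% lower in tumor-bearing mice, and 18.2% and 12.7% in tumor-free mice. The arterial markers had medians of 2.23 and 2.18, and the 8 endothelial markers 5.47 and 5.19. The counts thus show higher levels in the endothelial sort and do not mark sinusoids alone. Among the higher ones of the 15 were Ptprb, the phosphatase that restrains the receptor TIE2, at 5.71 in tumor-bearing and 5.34 in tumor-free mice, Gpr182, an atypical chemokine receptor, at 4.25 and 4.32, and Flt4, the receptor for VEGF-C, at 3.98 and 3.79. The gene called lower in tumor-free mice was Gata4, a transcription factor of liver sinusoids, at -0.72, and the liver lectin Clec4g was too dim to test. Emcn, in this list, is also among the endothelial markers above.

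Other scavenger receptors did not follow, and Cd68 and Cd163 of this list are also macrophage markers. Of 13 tested, 1 was higher and 4 lower in endothelial cells from tumor-bearing mice (median -0.42), and 1 was higher and 5 lower in those of tumor-free mice (median -0.64). Over all genes tested, 8.13% were higher and 6.79% lower in tumor-bearing mice, and 18.2% and 12.7% in tumor-free mice. The Fc receptor Fcgr2b, which clears immune complexes in liver sinusoids, was the higher one in tumor-bearing mice at 1.20, and the lysosomal receptor Scarb2 in tumor-free mice at 0.96. Lower in both states were Lrp1, a receptor of the LDL receptor family, at -2.65 in tumor-bearing and -2.41 in tumor-free mice, and the collectin Colec12, at -2.04 and -1.39. Vldlr was also lower in both. Its mean in endothelial cells was 5.73 against 7.81 in osteoblasts of tumor-bearing mice, and 6.22 against 8.39 in tumor-free mice. In tumor-free mice Scarf2 (-0.96) and the ferritin receptor Scara5 (-0.64) were lower too, and read -0.34 and -0.42 without passing in tumor-bearing mice. When 1 array was left out in turn, the tumor-free calls of Colec12 and Scarb2 were lost in 3 and 2 of 12 fits. The tumor-bearing call of Vldlr was lost in 5 of 12.

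Of 17 other genes of fatty acid uptake and binding, 8 were higher and 0 lower in endothelial cells from tumor-bearing mice (median 0.66), and 7 were higher and 1 lower in those of tumor-free mice (median 0.92). The shares over all genes were 8.13% higher and 6.79% lower in tumor-bearing mice, and 18.2% and 12.7% in tumor-free mice. Rbp7, a retinol carrier and PPAR-gamma target of capillaries, was higher by 5.00 in tumor-bearing and 4.52 in tumor-free mice, and Gpihbp1, which anchors lipoprotein lipase to capillaries, by 4.12 and 3.90. Cav1, the coat protein of caveolae, was higher by 2.70 and 4.64. The endothelial transcription factor Meox2 (2.28) and the glycerol channel Aqp7 (2.87) were called in tumor-bearing mice, and read 1.33 and 1.18 without passing in tumor-free mice. Fatty acid transporters of the SLC27 family were not among those higher: Slc27a1 was lower in tumor-free mice (-0.47), and Slc27a4 and Slc27a6 did not pass in either state. The tumor-free call of Slc27a1 and the tumor-bearing call of Meox2 were each lost in 4 of 12 fits that left out 1 array.

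Partners of Cd14 and Lyve1 were mixed. In the 6 genes of the lipopolysaccharide receptor complex, 1 was higher and 1 lower in endothelial cells from tumor-bearing mice (median -0.09), and 2 were higher and 2 lower in those of tumor-free mice (median 0.37). For this list and the next, the shares over all genes were 8.13% higher and 6.79% lower in tumor-bearing mice. In tumor-free mice they were 18.2% and 12.7%, and lists this short cannot be told from them. Ly96, which encodes MD-2, was higher by 3.56 in tumor-bearing and 3.37 in tumor-free mice, while Tlr4 read 1.00 and 0.02 without passing and Tlr2, a receptor for bacterial lipopeptides, was lower, at -1.59 and -0.86. The adaptor gene Ticam2 was lower in tumor-free mice (-0.50), and Lbp, which encodes the plasma carrier that hands lipopolysaccharide to CD14, was higher there (2.10) and read -0.18 in tumor-bearing mice. Leaving out 1 array lost the tumor-free calls of Tlr2 in 9 of 12 fits, of Ticam2 in 6 and, in the next list, of Hyal2 in 3. Among 5 hyaluronan genes tested, 2 were higher and 2 lower in tumor-bearing mice (median -0.70), and 2 were higher and 1 lower in tumor-free mice (median -0.39). The hyaluronan receptor Cd44 was lower at -2.07 and -1.19, and the hyaluronidases Cemip2, at 2.01 and 1.83, and Hyal2, at 1.04 and 0.65, were higher.

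The second comparison asked how the genes differed between tumor-bearing and tumor-free mice within endothelial cells. None passed: 0 of 10 had an adjusted p under 0.05, where 0.0241% of all genes tested did, and 2 of 10, Fabp5 and Stab1, had an unadjusted p under 0.05, where 6.93% did (limma). The states did not overlap for Cd36 and Fabp5, higher in tumor-bearing mice, where 7.84% of all genes were higher without overlap. They did not overlap for Stab1, Stab2 and Mrc1 either, lower in tumor-bearing mice, where 10.9% were lower without overlap. The median difference of the 10 genes was 0.0032, beside -0.02 over all genes tested.

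Fabp5 differed by 1.20 (95% interval 0.33 to 2.07, adjusted p = 0.503), with array 1 of the tumor-free mice close to the tumor-bearing arrays and arrays 2 and 3 more than 1 unit below them. Its other probe set gave 1.49 ± 0.54 SE. Stab1 differed by -0.72 (95% interval -1.24 to -0.21, adjusted p = 0.500). Cd36 read 0.75 (95% interval -0.51 to 2.02) and Cd14 0.70 (95% interval -0.26 to 1.66). These intervals use a spread shared by the 4 groups. The SD of Cd36 was 0.14 in tumor-bearing and 0.30 in tumor-free endothelial cells, against 1.23 and 0.99 in osteoblasts. For Mrc1 the SD was 0.03 and 0.10 in endothelial cells, against 2.23 and 3.70 in osteoblasts. Its 95% interval of -3.65 to 3.03 thus comes mostly from osteoblast spread, and this fit could not resolve its endothelial difference of -0.31. The remaining 6 genes lay between -0.32 and 0.14. Fitted on the 6 endothelial arrays alone, the adjusted p was 0.195 for Fabp5, 0.210 for Stab1, 0.189 for Cd36, 0.349 for Stab2 and 0.316 for Mrc1.

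**Figure D3:**
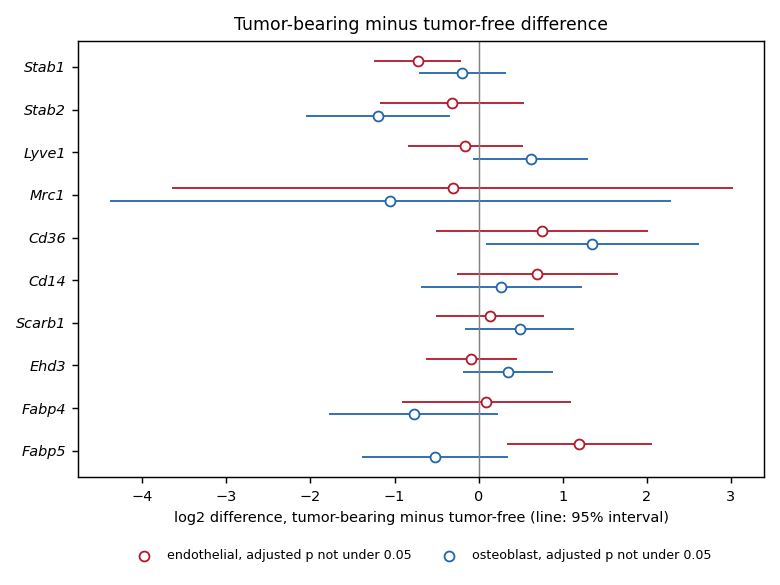
Difference between tumor-bearing and tumor-free mice (log2, horizontal axis) of each of the 10 genes in endothelial cells and in osteoblasts. Points are limma estimates over 3 arrays a group and lines 95% intervals; open points did not pass an adjusted p of 0.05. No point is filled, and the intervals of Stab1 and Fabp5 in endothelial cells and of Stab2 and Cd36 in osteoblasts leave out 0.

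Array 1 of the tumor-free endothelial cells read between the other arrays of its group and the tumor-bearing ones for Fabp5, Cd36 and Stab1, and overlapped the tumor-bearing arrays for Cd14. The mean of 10 immediate early genes, such as Fos and Egr1, which rise within minutes of cell stress and handling, was 9.66, 9.67 and 9.60 on the tumor-bearing endothelial arrays and 9.63, 8.71 and 8.61 on the tumor-free ones. It was thus level with the tumor-bearing arrays on array 1. Of the 10 immediate early genes, 0 passed in endothelial cells (4 at an unadjusted p under 0.05), and 2, Nr4a1 (1.63) and Fosb (1.31), were called higher in tumor-bearing osteoblasts. Fitted on the 6 osteoblast arrays alone, neither passed (adjusted p = 0.103 for Nr4a1 and 0.106 for Fosb), and the Fosb call was lost in 8 of 12 fits that left out 1 array. Meox2 and Aqp7 had the largest differences of the fatty acid list in these cells, at 2.01 and 1.97, and did not pass. Meox2 read 7.76, 7.93 and 8.07 in tumor-bearing mice and 7.51, 4.98 and 5.23 in tumor-free mice. Without array 1, Fabp5 differed by 1.57, Stab1 by -0.92, Cd36 by 0.92 and Cd14 by 0.98. Leaving out array 1 of both tumor-free groups gave an adjusted p of 0.063 for Fabp5 and 0.127 for Stab1. Against array 1 alone the differences were 0.46, -0.32, 0.41 and 0.15. The part of handling in these differences was not tested.

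**Figure D4:**
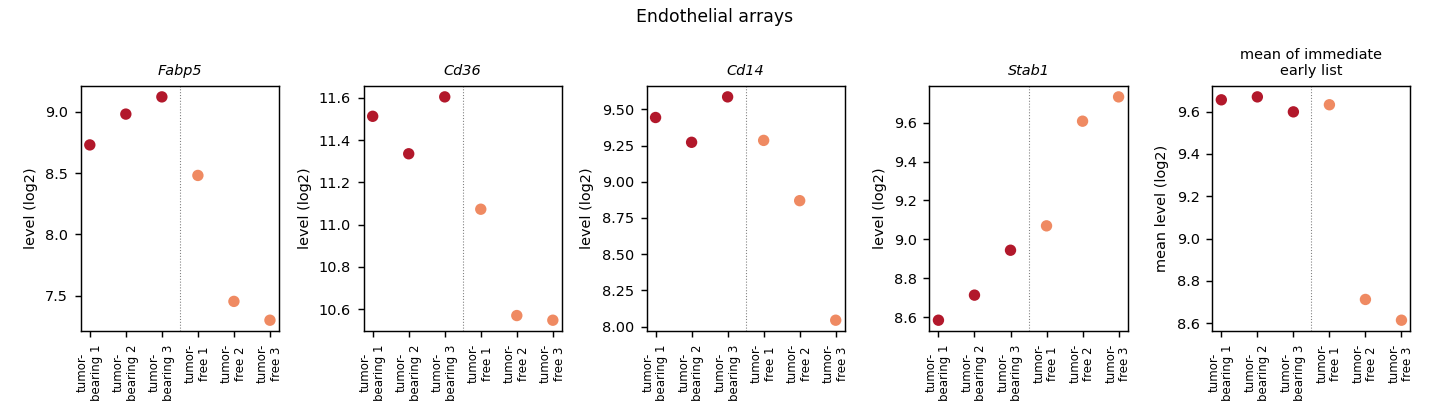
Levels (log2, vertical axes, each panel with its own range) of Fabp5, Cd36, Cd14 and Stab1 and the mean of 10 immediate early genes on the 6 endothelial arrays, tumor-bearing left of the dotted line and tumor-free right of it. Points are single arrays. Array 1 of the tumor-free group lies level with the tumor-bearing arrays in the last panel, at 9.63, and nearest to them in the others.

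In the lists related to the 10 genes, 0 of 15 other sinusoidal genes, 0 of 13 other scavenger receptors and 0 of 17 other fatty acid genes passed the test in endothelial cells (limma), and 4, 1 and 3 had an unadjusted p under 0.05. Their medians were -0.34, 0.12 and 0.35. The 8 endothelial markers had a median of -0.29, with 0 past the test and 2 at an unadjusted p under 0.05. Among lymphatic markers, Prox1 read 6.40, 5.49 and 5.65 in tumor-bearing mice and 6.65, 4.82 and 4.56 in tumor-free mice, again with array 1 high. Of 3 lymphatic markers tested, 1 was higher and 1 lower in endothelial cells than in osteoblasts in each state, namely Mmrn1, at 3.34 in tumor-bearing and 3.68 in tumor-free mice, and Pdpn, at -1.63 and -0.68, whose tumor-free call was lost in 4 of 12 fits that left out 1 array. Mmrn1, a multimerin of lymphatic vessels, read 6.55, 6.88 and 7.73 in tumor-bearing mice and 7.40, 7.76 and 7.75 in tumor-free mice. The mean of the 14 macrophage and monocyte markers was 4.66 to 4.83 on the endothelial arrays of tumor-bearing mice and 4.69 to 4.78 on those of tumor-free mice. Not every marker was low there: Mertk, a receptor for dying cells, read 6.98 to 7.58 and Cd68 5.83 to 7.41 over the 6 arrays, above the array medians, while Adgre1 read 3.53 to 3.79 and Csf1r 4.24 to 4.51. The part of macrophage RNA in the endothelial levels of Mrc1 was not tested.

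The third comparison was the same one in osteoblasts. Again 0 of 10 genes passed, where 4.59% of all genes tested did, and 2 of 10, Stab2 and Cd36, had an unadjusted p under 0.05, where 24.4% did. The share over all genes itself moved with single arrays: it was 12.7% without array 1 of the tumor-free osteoblasts and 0.893% without array 2 of the tumor-bearing osteoblasts, and on the 6 osteoblast arrays alone 0 genes passed. Stab2 differed by -1.19 ± 0.39 SE (95% interval -2.05 to -0.34, adjusted p = 0.099) and was the 1 gene without overlap, lower in tumor-bearing mice, where 12.3% of all genes were lower without overlap. The mean of the 8 endothelial markers was 5.41, 5.50 and 4.94 on the osteoblast arrays of tumor-bearing mice and 5.31, 6.04 and 5.40 on those of tumor-free mice, highest on array 2 of the tumor-free group as was Stab2, and the part of endothelial RNA was not tested. Of the 15 other sinusoidal genes, 0 passed and 7 had an unadjusted p under 0.05, with a median of -0.31. Cd36 differed by 1.35 ± 0.57 SE (95% interval 0.09 to 2.62, adjusted p = 0.180), with array 1 of the tumor-bearing osteoblasts the highest at 7.26 and the states overlapping. Here too the spread was shared by the 4 groups. The SD of Stab2 was 0.19 in tumor-bearing and 1.03 in tumor-free osteoblasts, against 0.07 and 0.15 in endothelial cells. The other 8 genes lay between -1.05 and 0.62. Over the 10 genes the median was 0.04, beside -0.0014 over all genes tested.

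Mrc1 had the widest spread in osteoblasts. Its difference was -1.05 with a 95% interval of -4.39 to 2.29 (adjusted p = 0.696), and its levels followed the mean of 14 macrophage and monocyte markers. That mean was 6.29, 6.02 and 4.79 on the arrays of tumor-bearing mice and 4.89, 7.71 and 7.44 on those of tumor-free mice, and array 3 of the tumor-bearing group and array 1 of the tumor-free group were low in both. Complement gene C1qc read 7.97, 7.88 and 5.30 in tumor-bearing mice and 5.36, 10.28 and 10.26 in tumor-free mice. The hemoglobin receptor Cd163 read 4.74, 5.14 and 4.02 in tumor-bearing mice and 4.84, 8.95 and 7.30 in tumor-free mice. The mean of 9 neutrophil markers followed the same arrays, at 6.38, 6.32 and 5.16 in tumor-bearing mice and 5.57, 7.73 and 7.32 in tumor-free mice. Of 10 macrophage markers tested, 0 passed between the states of osteoblasts (2 at an unadjusted p under 0.05), and 0 in tumor-bearing and 6 in tumor-free mice were lower in endothelial cells, among them Adgre1 (-3.14), C1qb (-2.72) and Fcgr1 (-1.32). Of 7 neutrophil markers tested, 0 were lower in endothelial cells from tumor-bearing mice and 2, S100a9 (-2.38) and Camp (-1.85), in those of tumor-free mice. Of these 5 named tumor-free calls, each was lost in 3 to 11 of 12 fits that left out 1 array. The share of all genes called lower in endothelial cells was 6.79% in tumor-bearing and 12.7% in tumor-free mice. Osteoblasts were sorted as CD45-, a gate that should remove macrophages and neutrophils. Fabp4 and Stab2 were also highest on arrays 2 and 3 of the tumor-free osteoblasts, and the part of such RNA in these levels was not tested.

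**Figure D5:**
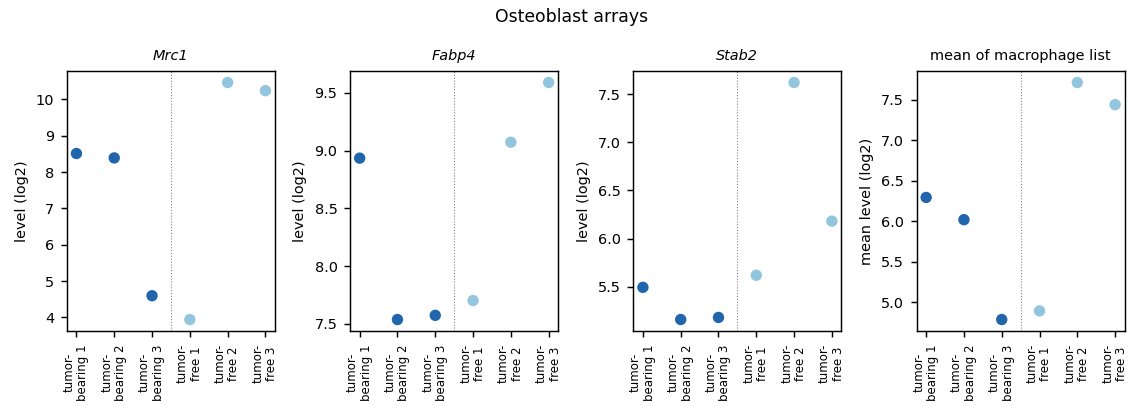
Levels (log2, vertical axes, each panel with its own range) of Mrc1, Fabp4 and Stab2 and the mean of 14 macrophage and monocyte markers on the 6 osteoblast arrays, tumor-bearing left of the dotted line and tumor-free right of it. Points are single arrays. Arrays 2 and 3 of the tumor-free group are highest in all 4 panels, and array 3 of the tumor-bearing group and array 1 of the tumor-free group are lowest for Mrc1 and for the list.

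What passed in osteoblasts moved with single arrays. Without array 1 of the tumor-free group, 3 of the 10 genes passed as lower in tumor-bearing mice, where 3.22% of all genes were called lower and 9.44% higher: Stab2 at -1.62 (adjusted p = 0.011), Mrc1 at -3.19 (adjusted p = 0.0444) and Fabp4 at -1.32 (adjusted p = 0.0397). Without arrays 2 and 3 of the tumor-free groups, the difference of Mrc1 was 3.22. Without array 3 of the tumor-bearing group, Lyve1 was higher by 1.03 (adjusted p = 0.0433). Genes of the same pathways called higher in tumor-bearing osteoblasts were Cav1, by 2.61 (adjusted p = 0.00412), Lbp, by 2.05 (adjusted p = 0.00254), and Cd44, by 1.38 (adjusted p = 0.00967). They were 1 of 17 fatty acid genes, 1 of 6 genes of the lipopolysaccharide complex and 1 of 5 hyaluronan genes tested, and 0 genes of these lists were called lower. Fitted on the 6 osteoblast arrays alone, none of these 3 passed (adjusted p = 0.103 for Cav1, 0.103 for Lbp and 0.113 for Cd44), and the Cd44 call was also lost without array 2 of the tumor-bearing group (1.29, adjusted p = 0.0508).

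Whether the tumor difference itself differed between endothelial cells and osteoblasts was tested as an interaction over all 12 arrays. Again 0 of 10 genes passed, where 0.209% of all genes did, and 1 of 10, Fabp5, had an unadjusted p under 0.05, where 16% did. For Fabp5 the difference between the cell types was 1.72 (95% interval 0.49 to 2.95, adjusted p = 0.194), made of 1.20 in endothelial cells and -0.52 in osteoblasts, and the other probe set gave 2.21 ± 0.77 SE. The other 9 genes lay between -0.78 for Lyve1 and 0.88 for Stab2. Of the pathway lists, Lbp passed, at -2.28 (adjusted p = 0.0279). The call was lost in 6 of 12 fits that left out 1 array, namely array 2 of the tumor-bearing osteoblasts, any array of the tumor-bearing endothelial cells, or array 2 or 3 of the tumor-free endothelial cells (values of -2.37 to -2.15, highest adjusted p = 0.101). Its mean level was 8.65 in endothelial cells from tumor-bearing mice, 8.88 in those of tumor-free mice, 8.82 in osteoblasts of tumor-bearing mice and 6.78 in those of tumor-free mice.

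Across the 12 arrays, the tested genes with the profile most like each of the 10 were found by Pearson correlation. For genes with large cell type differences it mainly reflects the 2 cell types. For Mrc1 it also reflects the spread from 3.94 to 10.47 over the osteoblast arrays. Stab2 ran closest to Dnase1l3 (r = 0.994), Flt4 (0.991) and the VEGF receptor Kdr (0.991), and Stab1 to Jup (0.992), Ushbp1 (0.992) and Tie1 (0.991). Mrc1 ran closest to Selenop (0.985), which encodes a selenium carrier, Fmnl2 (0.977) and Glul (0.972). Cd36 ran closest to Plk2 (0.994), Serinc3 (0.994) and Gbp7 (0.989), and Fabp4 to Etl4 (0.988), Cyyr1 (0.985) and Cdc42bpb (0.984). Scarb1 ran closest to Anxa3 (0.981), Tshz2 (0.980) and Pgm2 (0.977), and Cd14 to Parp9 (0.969), Tut7 (0.965) and Zfp711 (0.959). For the genes whose cell types overlapped in either state the values were lower: Ehd3 with Pfdn6 (0.894), Pacs1 (0.893) and Lrrc57 (0.869), Fabp5 with Med24 (0.875), Dusp2 (0.873) and C1qtnf9 (0.861), and Lyve1 with Pknox1 (0.849), Xist (0.835) and Ccl5 (0.832). These values are descriptions over 12 arrays that share their cell type and preparation, and they carry no test.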

How the data were processed

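RNA of FACS-sorted cells was extracted with the Pico Pure kit, amplified with the Ovation Pico WTA System and put on 12 arrays, per the labels' protocols. Levels of 34760 probe sets were deposited by the authors on a log2 scale, as read from the values, and were made with affy per the submitters' processing notes; background correction and normalization were not given in the sources used here. The number of arrays limits precision. Probe sets were named through the platform annotation, which gives 1 gene symbol to 21640, several to 1321 and no entry to 11799; only the first were used. Genes that exceeded the array's median level on 3 arrays or more were tested, 12430 of 19937 (62.3%).

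Groups came from the sample titles. limma 3.58.1 in R 4.3.3 was fitted to all 12 arrays with 1 mean per group and 1 spread shared by the 4 groups (8 residual and 2.89 prior degrees of freedom). Two-sided p-values were adjusted over all tested genes (Benjamini-Hochberg, threshold 0.05). They measure the spread between arrays, which may be technical. The fit was run on simulated data in which each gene had the same spread in all groups. In the real data the median SD was 0.33 in tumor-free osteoblasts and 0.17 in tumor-free endothelial cells. The simulation therefore does not show how the fit deals with unequal spread or single outlying arrays. Of 66 pairs of arrays, 0 were identical (highest correlation 0.970).

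The 10 genes, the lists of 151 related and marker genes (12 not analysed here) and the tests were chosen with earlier results of these data known. By rule the text names all 10 genes, the 3 tested genes most correlated with each, and from each list up to 3 called genes with the smallest p. Gata4, Clec4g, Emcn, Scarb2, Vldlr, Meox2, Aqp7, Slc27a1, Slc27a4, Slc27a6, Tlr4, Ehd1, C1qc, Cd163, Cd68, Mertk, Csf1r, Fos, Egr1 and Prox1 were added after their values were seen. Coordinates and promoters are RefSeq's on GRCm38.p6, and the files' own build was not given in the sources used here. Alternatives changed the filter, scaling, probe set rule, variance model, array weights, samples fitted and block, and left out arrays.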

Additional observations from a re-analysis of the deposited data

How the results depend on the processing

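Among values of single genes under the alternatives tried, 1085 kept their direction and side of the threshold, 17 newly passed the test, 7 no longer passed and 26 turned sign. The first count is no measure of stability, since many of these differences could not change. A fit without an array outside the comparison leaves the difference as it was. So do the variance model, the block and the fit on the compared groups alone. In osteoblasts, the count of genes past the threshold between tumor states was 1 with array quality weights (Stab2), 1 with the tumor-free arrays numbered 1 left out, a setting chosen after seeing the data (Stab2), and 0 to 3 when each array was left out in turn. In endothelial cells it was 2 with array quality weights (Stab1 and Fabp5), a fit that called 449 of all 12430 genes against 3, and 0 when each array was left out. The cell type counts were 6 to 8 in tumor-bearing and 5 to 6 in tumor-free mice, and that of the interaction 0, when each array was left out.

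Differences that turned sign were mostly near 0. For Fabp5 between cell types in tumor-free mice they were -0.26 after quantile normalization, -0.00072 with the mean over probe sets, -0.12 with array weights and -0.053 without the tumor-free arrays numbered 1. Without those numbered 2 and 3, also chosen after seeing the data, the tumor difference was 3.22 for Mrc1 and 0.31 for Fabp4 in osteoblasts and 0.22 for Ehd3 in endothelial cells, the cell type difference of Ehd3 in tumor-free mice was -0.035, and the interaction was -3.42 for Mrc1, -0.045 for Cd14, 0.080 for Scarb1, 0.19 for Ehd3 and -0.31 for Fabp4. Over arrays left out in turn, the osteoblast tumor difference ran from -3.19 to 0.23 for Mrc1, -0.17 to 0.74 for Cd14 and -0.36 to 0.044 for Stab1, the endothelial one from -0.24 to 0.19 for Ehd3, the tumor-free cell type difference from -0.41 to 0.32 for Fabp5, and the interaction from -0.54 to 2.88 for Mrc1, -0.038 to 0.87 for Cd14, -1.17 to 0.058 for Cd36 and -0.55 to 0.024 for Scarb1. The cause was not tested.

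Ehd3 passed between cell types in tumor-free mice with arrays centred on their medians (adjusted p = 0.0448), which shifted the median of all genes by 0.15, and without the arrays numbered 1 (0.0412). With the arrays numbered 2 and 3 left out, Mrc1 passed there at 6.91 (0.0254). Whether replicate numbers pair arrays was not decided. Deviations from group means of same-numbered endothelial and osteoblast arrays correlated at 0.002, 0.071 and -0.046 in tumor-bearing mice. In tumor-free mice they correlated at 0.095, 0.074 and -0.003, and different-numbered arrays ran from -0.10 to 0.09 over both states. Same-numbered osteoblast arrays of tumor-bearing and tumor-free mice, which are different animals, correlated at -0.26, -0.003 and -0.14. With replicate number as a block, 0 genes passed in endothelial cells, 0 in osteoblasts, 0 in the interaction, and 7 and 6 between cell types in tumor-bearing and tumor-free mice, which changed no call among the 10. The block ended the interaction call of Lbp (adjusted p = 0.0932) and the osteoblast call of Fosb (0.0513). Signal over background was not analysed here, so a level near the array median, as of Lyve1, may be at background.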
